A study of Mus musculus with 12 samples.

Results

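The 10 Wnt ligand genes *Wnt2*, *Wnt2b*, *Wnt3*, *Wnt4*, *Wnt5a*, *Wnt5b*, *Wnt7a*, *Wnt7b*, *Wnt9a* and *Wnt16* were followed by abundance and by time in cultured mouse astrocytes. They are the rows of the count table that carry these gene names, 10 of the 15 Wnt genes and of the 18903 genes in the table, and all 10 passed the filter on low counts. Primary astrocytes were cultured from brains dissected at postnatal day 1 (P1), P6 or P8 and their mRNA was sequenced. Libraries labelled WT came from hGFAP-cre::Rack7+/+ mice, and libraries labelled cKO from hGFAP-cre::Rack7 fl/fl mice, in which a pair of *Rack7* exons is flanked by loxP sites. *Rack7* is the gene that the count table lists as *Zmynd8*, a reader of histone marks. Cre, which every group carries, is driven by the human *GFAP* promoter, which turns on in neural stem cells before birth, so that deletion is not limited to astrocytes. The day is the age at dissection: all cultures were then grown for weeks and shaken to remove microglia and oligodendrocytes before harvest. Each of the 6 groups held 2 libraries, described as biological repeats, and how many pups went into a culture was not given in the sources used here.

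*Zmynd8* itself was higher in the libraries labelled cKO, in CPM (counts scaled to a common library size). At P1 the WT libraries gave 136 and 136 CPM while the cKO libraries gave 213 and 216. The P6 values were 114 and 116 for WT, 242 and 230 for cKO, and those of P8 were 100 and 104 for WT, 160 and 171 for cKO. In day order the log2 differences were 0.65 (SE 0.047, adjusted p = 3.16e-05), 1.04 (SE 0.047, adjusted p = 4.97e-07) and 0.70 (SE 0.047, adjusted p = 3.78e-06). This goes against the direction a knockout label implies, but a count over the whole gene does not check the deleted exons, so that "labelled WT" and "labelled cKO" name the groups throughout. In cultured primary astrocytes the paper checked RACK7 protein by immunoblot, and it reports far fewer RACK7 peaks on chromatin in cKO than in WT. Whether those cultures were the ones sequenced here was not given in the sources used here. The 12 libraries held 54413504 to 89183250 counts. Of 12 astrocyte markers, 11 were in the table and none of these was at 0 in any group. Their summed level was 1697 to 2399 CPM in 5 groups, but 786 and 795 CPM in the P8 cKO libraries. Microglia markers (11 of 11 in the table, none at 0) summed to 3141 to 4623 CPM in these 5 groups and to 6510 and 6564 CPM in P8 cKO. There, 8 of the 11 were called higher than in P8 WT (11.2% of all genes were) and 1, *Tmem119*, was called lower (8.37%). The part of these markers in the P8 differences between labels was not tested. In bulk RNA, fewer cells of a type and less RNA per cell cannot be told apart.

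Wnt ligands are secreted, lipid-modified glycoproteins that bind Frizzled receptors on nearby cells. With the co-receptors LRP5 or LRP6 some of them stabilise β-catenin and turn on target genes such as *Axin2*, and others, with *Wnt5a* as the usual example, act through ROR receptors without β-catenin. In the brain, *Wnt7a* and *Wnt7b* from neural progenitors and glia are known for guiding the growth of vessels and the blood-brain barrier, through the co-receptors ADGRA2 and RECK on endothelial cells.

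The genes lie at 10 places on 6 chromosomes, and no member overlaps another. Coordinates are given on GRCm38 from the GENCODE annotation. *Wnt9a* is on chromosome 11 from 59306928 to 59333552 on the plus strand, 16176 bases from *Wnt3a*, and *Wnt3* is on the same chromosome from 103774150 to 103817957, 24329 bases from *Wnt9b*. *Wnt2* lies from 17988940 to 18030585 on the minus strand of chromosome 6, which also holds *Wnt16* (22288227 to 22298522), *Wnt7a* (91363981 to 91411363) and *Wnt5b* (119432531 to 119544347). *Wnt5a* is on chromosome 14 (28504750 to 28527448), *Wnt7b* on chromosome 15 (85535437 to 85582473), *Wnt2b* on chromosome 3 (104945272 to 104961921) and *Wnt4* on chromosome 4 (137277489 to 137299726). The gene models of *Wnt5a* and *Wnt7b* are overlapped by antisense genes (*Gm2670*, *AU022754*), that of *Wnt5b* by *Fbxl14* on the other strand and that of *Wnt2b* by *Gm43846*. These overlaps are of whole gene spans with introns, and whether exons overlap was not checked. The sources used here do not say whether strand was used in counting. Whether reads of these overlapping genes were counted for a ligand is therefore not known.

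RefSeq promoter windows on GRCm38.p6 were at hand for 8 of the 10 ligands, *Wnt5a* and *Wnt7b* being the other two. The 250 bases before the start are shown for *Wnt9a* and *Wnt5b*, the most abundant ligands with a window, and for *Wnt16*, the least abundant. These promoter windows differ in their number of CG dinucleotides. Capitals mark CG dinucleotides, and each runs 5′ to 3′ on the strand of its gene. The *Wnt9a* window is chr11:59306680-59306929 on the plus strand, the *Wnt5b* window, at the farthest upstream of its 3 starts, is chr6:119544348-119544597 on the minus strand, and the *Wnt16* window is chr6:22287977-22288226 on the plus strand.
Wnt9a: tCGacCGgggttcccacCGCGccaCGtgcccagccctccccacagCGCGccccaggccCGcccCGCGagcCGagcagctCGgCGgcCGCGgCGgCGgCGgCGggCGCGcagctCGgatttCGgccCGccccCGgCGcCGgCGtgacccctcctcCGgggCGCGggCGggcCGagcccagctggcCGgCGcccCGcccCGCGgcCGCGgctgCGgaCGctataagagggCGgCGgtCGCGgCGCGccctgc
Wnt5b: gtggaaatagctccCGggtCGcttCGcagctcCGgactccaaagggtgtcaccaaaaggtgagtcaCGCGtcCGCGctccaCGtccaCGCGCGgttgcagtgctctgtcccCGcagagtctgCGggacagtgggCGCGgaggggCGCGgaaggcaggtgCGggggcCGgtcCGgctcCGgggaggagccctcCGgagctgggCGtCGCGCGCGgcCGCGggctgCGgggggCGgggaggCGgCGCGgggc
Wnt16: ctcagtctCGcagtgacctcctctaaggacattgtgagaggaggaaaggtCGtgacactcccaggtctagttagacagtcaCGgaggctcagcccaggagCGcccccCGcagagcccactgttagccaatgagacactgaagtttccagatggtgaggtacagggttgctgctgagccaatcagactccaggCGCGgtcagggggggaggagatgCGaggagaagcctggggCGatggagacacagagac
The *Wnt9a* window held 48 CG dinucleotides and the *Wnt5b* window 35, against 9 in that of *Wnt16*. Over all 32851 windows of this length in the table the median was 6, and 99.8% held fewer than *Wnt9a*, 97.0% fewer than *Wnt5b* and 59.7% fewer than *Wnt16*. The other members had 44 (*Wnt4*), 36 (*Wnt2b*), 34 (*Wnt7a*), 22 (*Wnt3*) and 20 (*Wnt2*), and the 2 downstream *Wnt5b* starts 4 and 7. Core letters bound by TCF and LEF factors were searched on both strands. The letters CTTTGAA were in none of the 10 member windows and in 4.46% of all windows. A variant, CTTTGAT, was at a downstream *Wnt5b* start and in 3.21% of all windows, and the matches of the variants do not overlap. These letter matches are descriptions only, and no binding was measured here.

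Per length of transcript, *Wnt5a*, *Wnt9a* and *Wnt5b* were the most abundant ligands. Levels of different genes are compared as RPKM, the CPM per kilobase of a gene's merged exons. Averaged over the 12 libraries, *Wnt5a* stood at 7.88 RPKM, *Wnt9a* at 5.38 and *Wnt5b* at 4.38, followed by *Wnt2* at 2.09, *Wnt7a* at 1.77, *Wnt2b* at 1.41, *Wnt7b* at 1.34, *Wnt4* at 0.644, *Wnt3* at 0.319 and *Wnt16* at 0.167. *Wnt5a* ranked 1 in 7 libraries and *Wnt9a* in the other 5, and *Wnt5a* was among the top 3 in all 12. Even these were genes of middling level: the *Wnt5a* mean lay between the 55.3rd and the 70.4th percentile of all tested genes, depending on the group. *Wnt16* stayed below 1 RPKM in all 12 libraries and *Wnt3* in 11.

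**Figure D1:**
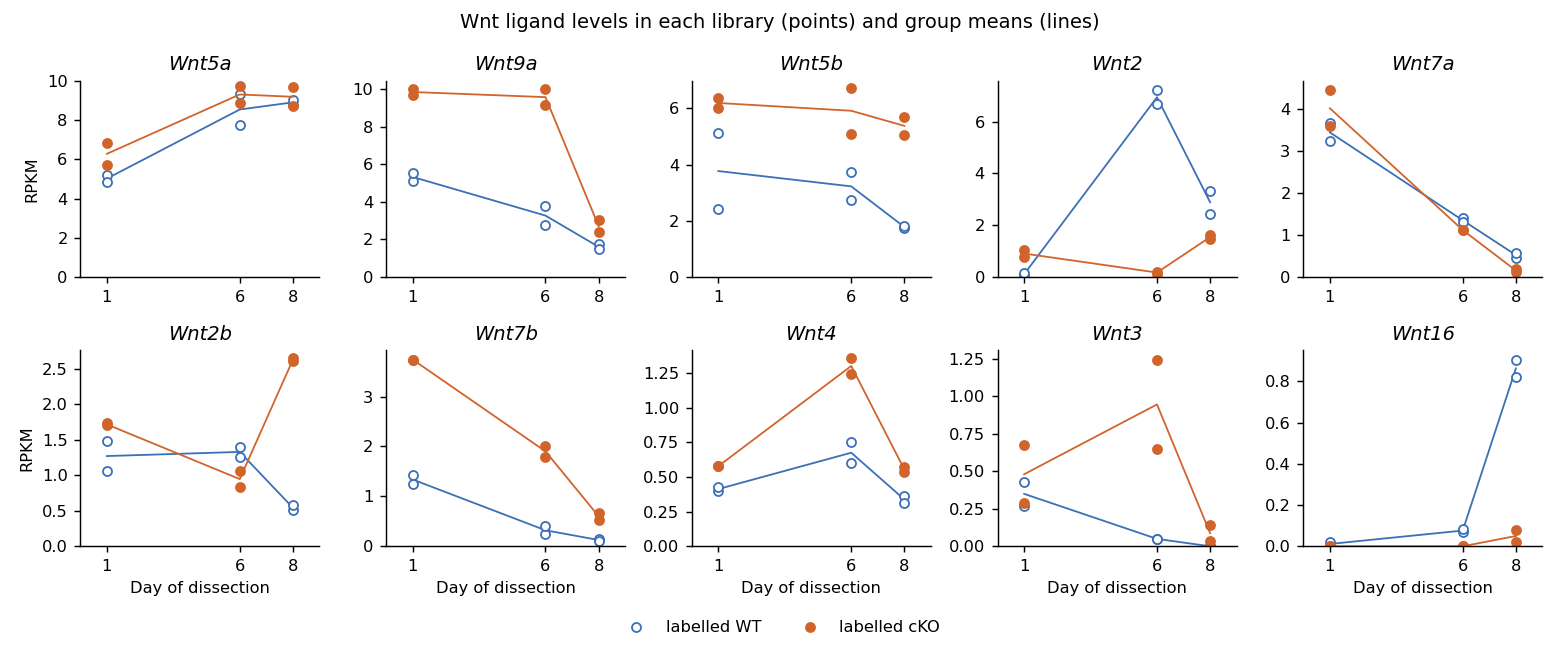
Level of each ligand in RPKM (vertical axis, own scale from 0 in each panel) against the day of dissection. Points are libraries (open, labelled WT; filled, labelled cKO) and lines join group means. *Wnt5a* rises after P1 and *Wnt7a* falls in both labels, *Wnt7b* and *Wnt9a* lie higher in the cKO libraries on each day, and *Wnt2* peaks at P6 in WT at 7.21 and 6.67 RPKM.

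In the libraries labelled WT the order changed with the day. At P1, *Wnt9a* (5.09 and 5.55 RPKM), *Wnt5a* (5.20 and 4.84), *Wnt5b* (2.41 and 5.13) and *Wnt7a* (3.66 and 3.23) led, each overlapping the next in its libraries, and *Wnt2* was ninth of the 10 at 0.0595 and 0.147 RPKM. At P6, *Wnt5a* (7.76 and 9.34) was first and *Wnt2* second (7.21 and 6.67), ahead of *Wnt9a* (2.75 and 3.77) and *Wnt5b* (2.73 and 3.72), which overlapped. At P8, *Wnt5a* (8.79 and 9.03) stood apart from *Wnt2* (2.45 and 3.32), *Wnt5b* (1.74 and 1.81), *Wnt9a* (1.73 and 1.46) and *Wnt16* (0.822 and 0.905), while *Wnt3* had no count in either library. *Wnt5a* thus made up 23.9%, 33.2% and 50.7% of the summed RPKM of the 10 ligands at P1, P6 and P8.

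By group means, *Wnt9a*, *Wnt5a* and *Wnt5b* were the leading 3 in cKO on every day. *Wnt9a* led at P1 (9.68 and 9.99 RPKM, against 5.72 and 6.85 for *Wnt5a* and 6.38 and 6.01 for *Wnt5b*). At P6 *Wnt9a* (9.98 and 9.14) and *Wnt5a* (9.76 and 8.88) overlapped. At P8 *Wnt5a* (8.71 and 9.68) led *Wnt5b* (5.06 and 5.70), and *Wnt9a* (3.02 and 2.38) overlapped *Wnt2b* (2.60 and 2.65), the fourth by group mean and above *Wnt9a* in replicate 2. The share of *Wnt5a* was 18.6%, 29.9% and 40.2%. Summed over the 10 ligands, P1 libraries reached 19.6 and 22.5 RPKM in WT and 32.8 and 34.7 in cKO. The P6 sums were 24.2 and 27.3 RPKM in WT, 33.0 and 29.3 in cKO, and the P8 sums 17.0 and 18.1 in WT, 22.4 and 23.3 in cKO, so that the cKO libraries lay above the WT libraries on each day. The 5 other Wnt genes in the table, *Wnt1*, *Wnt6*, *Wnt10a*, *Wnt10b* and *Wnt11*, added 0.807% to 10.8% of the summed RPKM of all 15.

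**Figure D2:**
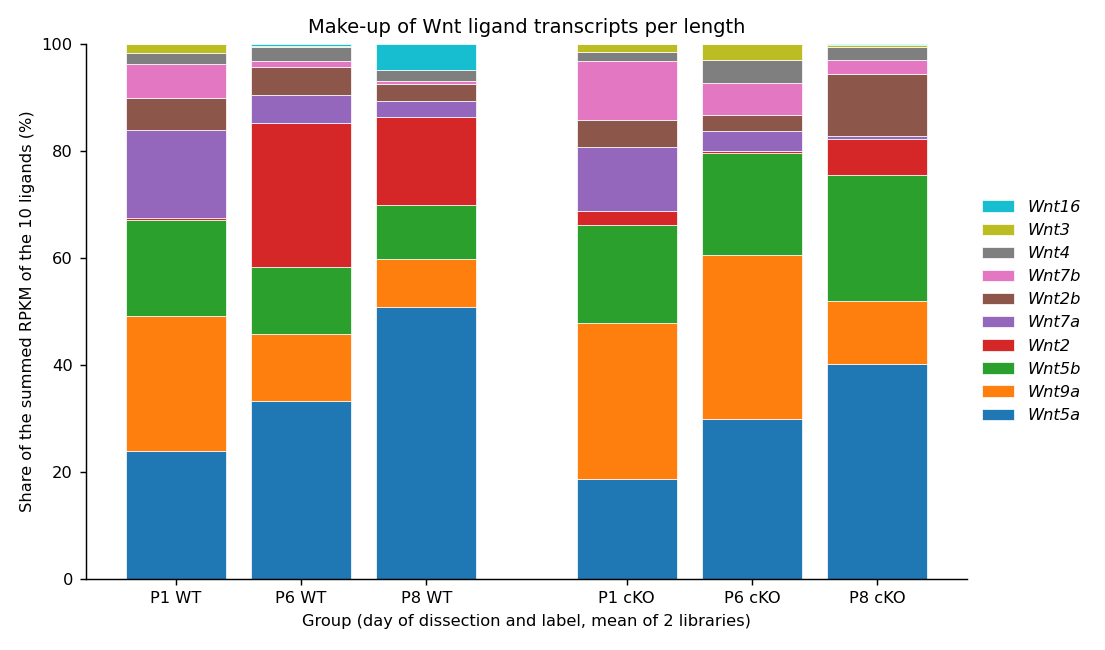
Share of each ligand in the summed RPKM of the 10 ligands (vertical axis, %) in each group of 2 libraries, from group means. The *Wnt5a* share rises to 50.7% in P8 WT and 40.2% in P8 cKO, and the *Wnt2* share is 26.9% in P6 WT against 0.538% in P6 cKO.

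A ligand was called changed when its adjusted p was below 0.05 over the 17938 genes tested and its fold change at least 1.5. Within the WT libraries, 7 of the 10 were called between P1 and P6, where 23.1% of all genes were: 3 rose (12.2% of all genes rose) and 4 fell (10.9%). Between P6 and P8, 8 were called (18.9% of all genes), with 1 up (8.66%) and 7 down (10.3%). Between P1 and P8, 9 were called (29.4% of all genes), with 3 up (14.4%) and 6 down (15.0%). Within the cKO libraries, 5 were called between P1 and P6 (21.4% of all genes), with 1 up (11.0%) and 4 down (10.4%). The step from P6 to P8 gave 8 calls in cKO (24.0% of all genes), with 3 up (11.9%) and 5 down (12.2%), and that from P1 to P8 gave 6 (20.3% of all genes), with 2 up (10.3%) and 4 down (9.97%). The median log2 change of the 10 from P1 to P8 was -1.16 in WT and -0.13 in cKO, beside -0.014 and 0.016 over all tested genes. These comparisons share groups and are not independent of one another. Between labels, 3 ligands were called at P1, where 4.90% of all genes were, and all 3 were higher in cKO (4.01% of all genes were). At P6, 6 were called (13.5% of all genes), 4 of them higher (7.16%) and 2 lower (6.38%). At P8, 9 were called (19.6% of all genes), 6 of them higher (11.2%) and 3 lower (8.37%). *Wnt7a* and *Wnt7b* fell at every step in both labels, and *Wnt9a* did so except from P1 to P6 in cKO.

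**Figure D3:**
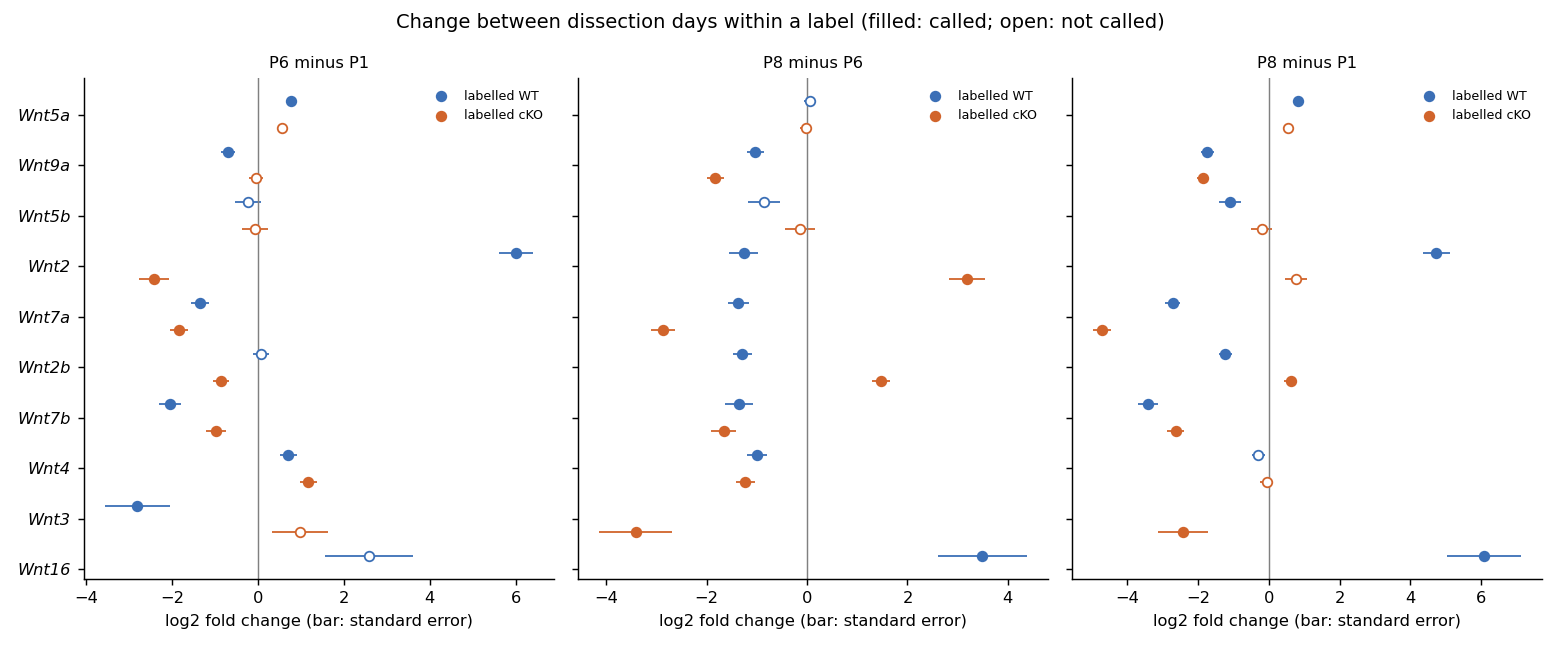
Log2 fold change of each ligand between dissection days (horizontal axis; bar, standard error), for P6 minus P1, P8 minus P6 and P8 minus P1, within the libraries labelled WT (blue) and cKO (orange). Filled points were called and open points were not; changes against a group with no count are not drawn. *Wnt7a* and *Wnt7b* lie left of 0 in all 3 panels, and *Wnt2* moves in opposite directions in the labels at the first and second steps.

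*Wnt5a*, the main ligand of the β-catenin-independent branch, rose from P1 to P6 and then held its level. It was at 40.7 and 37.9 CPM in P1 WT, 60.7 and 73.0 in P6 WT and 68.8 and 70.7 in P8 WT. The cKO libraries gave 44.7 and 53.6 CPM at P1, 76.3 and 69.4 at P6, then 68.2 and 75.7 at P8. All P6 and P8 libraries were thus above all P1 libraries, and at P6 and P8 the labels overlapped. From P1 to P8 it rose 1.78-fold in WT (log2 0.83, SE 0.11, adjusted p = 0.000276). The cKO values were 1.46-fold higher at P8 than at P1 (log2 0.55, SE 0.11, adjusted p = 0.00482) and 1.48-fold higher at P6 (log2 0.57, adjusted p = 0.00369), short of the 1.5-fold that a call requires; without P1 cKO replicate 2 these became calls (log2 0.68 and 0.70), as they did without P8 cKO replicate 1 (log2 0.62) and P6 cKO replicate 2 (log2 0.63), respectively. No difference between labels was called: cKO minus WT was 0.32 (SE 0.11, adjusted p = 0.129) at P1, 0.12 (SE 0.11, adjusted p = 0.491) at P6 and 0.045 (SE 0.11, adjusted p = 0.804) at P8 on the log2 scale.

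Its paralog *Wnt5b* followed another course. In WT it was at 6.39 and 13.6 CPM at P1, 7.24 and 9.87 at P6, then 4.63 and 4.81 at P8, and in cKO at 16.9 and 15.9, 17.9 and 13.6, and 13.4 and 15.1. The cKO libraries lay above the WT libraries on every day, and the P1 WT pair was the widest apart. *Wnt5b* was called higher in cKO at P8 (3.03-fold, log2 1.60, SE 0.31, adjusted p = 0.00354). At P6 the log2 difference was 0.88 (SE 0.31, adjusted p = 0.0665) and at P1 0.71 (SE 0.30, adjusted p = 0.215). The P6 difference was called without either P1 WT library (adjusted p = 0.0085 and 0.00869) and by DESeq2 (adjusted p = 0.00575), and the P1 difference without P1 WT replicate 2 (log2 1.36, adjusted p = 0.0129). Within WT, *Wnt5b* fell 2.13-fold from P1 to P8 (log2 -1.09, SE 0.31, adjusted p = 0.0176), a call that was lost without P1 WT replicate 2 (log2 -0.44, adjusted p = 0.158) and without P8 WT replicate 1 or 2 (adjusted p = 0.0806 and 0.0703). Within cKO the same step was -0.20 (SE 0.30, adjusted p = 0.651). The ratio of *Wnt5b* to *Wnt5a* in RPKM went from 0.463 and 1.06 at P1 through 0.352 and 0.398 at P6 to 0.198 and 0.200 at P8 in WT, and from 1.12 and 0.877 through 0.689 and 0.575 to 0.580 and 0.589 in cKO.

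*Wnt7a* and *Wnt7b*, the ligands of the vessel and barrier pathway, both fell with the day of dissection, but only *Wnt7b* lay higher in cKO on all 3 days. *Wnt7a* fell in WT from 11.6 and 10.2 CPM at P1 to 4.43 and 4.12 at P6 and 1.46 and 1.84 at P8. In cKO it went from 11.4 and 14.1 CPM to 3.53 and 3.55 and then 0.368 and 0.594. The days did not overlap in either label. The fall from P1 to P8 was 6.58-fold in WT (log2 -2.72, SE 0.22, adjusted p = 7.47e-06) and 26.2-fold in cKO (log2 -4.71, SE 0.25, adjusted p = 1.04e-06). The fall was steeper in cKO by 1.99 on the log2 scale (SE 0.31, adjusted p = 0.00128), as a test of the difference between the labels' changes. The labels were not called different at P1 (log2 0.22, SE 0.20, adjusted p = 0.604) or at P6 (log2 -0.27, SE 0.21, adjusted p = 0.398), and at P8 *Wnt7a* was 3.41-fold lower in cKO (log2 -1.77, SE 0.24, adjusted p = 0.000357).

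*Wnt7b* was at 6.99 and 6.12 CPM in P1 WT, 1.18 and 1.96 in P6 WT and 0.740 and 0.499 in P8 WT. In cKO it was at 18.3 in both libraries at P1, 9.88 and 8.74 at P6, then 3.30 and 2.59 at P8. The cKO libraries were above the WT libraries on every day, by 2.80-fold at P1 (log2 1.48, SE 0.24, adjusted p = 0.00461), 5.91-fold at P6 (log2 2.56, SE 0.26, adjusted p = 8.49e-05) and 4.78-fold at P8 (log2 2.26, SE 0.27, adjusted p = 0.000183). From P1 to P8 it fell 10.6-fold in WT (log2 -3.41, SE 0.28, adjusted p = 7.55e-06) and 6.22-fold in cKO (log2 -2.64, SE 0.25, adjusted p = 4.08e-05), and the changes were not called different between labels (log2 0.77, SE 0.36, adjusted p = 0.156). The step from P1 to P6 in cKO (1.97-fold lower, adjusted p = 0.00944) lost its call without P6 cKO replicate 2 (log2 -0.89, adjusted p = 0.0595). *Wnt7b* stayed below *Wnt7a* per length in all 6 WT libraries, at a ratio of 0.173 to 0.390. In cKO the P1 ratios were 1.04 and 0.841, the P6 ratios 1.81 and 1.60, and the P8 ratios 5.80 and 2.82.

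*Wnt9a*, known from joint and blood development, shared the late fall and the higher level in cKO. It was at 16.9 and 18.5 CPM in P1 WT, 9.17 and 12.5 in P6 WT and 5.77 and 4.88 in P8 WT. In cKO it was at 32.2 and 33.3 CPM at P1, 33.2 and 30.4 at P6, then 10.04 and 7.92 at P8. WT levels fell at both steps and cKO levels stayed until P6 and fell after it. From P1 to P6 the change was a 1.63-fold fall in WT (log2 -0.70, SE 0.17, adjusted p = 0.00814), lost without P6 WT replicate 1 (log2 -0.50, adjusted p = 0.0538), and in cKO it was -0.041 (SE 0.16, adjusted p = 0.877). From P6 to P8 *Wnt9a* fell 2.04-fold in WT (log2 -1.03, SE 0.17, adjusted p = 0.00139) and 3.55-fold in cKO (log2 -1.83, SE 0.17, adjusted p = 2.46e-05). The cKO libraries were higher by 1.85-fold at P1 (log2 0.89, SE 0.17, adjusted p = 0.0100), 2.93-fold at P6 (log2 1.55, SE 0.17, adjusted p = 0.000146) and 1.69-fold at P8 (log2 0.75, SE 0.17, adjusted p = 0.00741). The P1 call was lost without P1 WT replicate 1 (adjusted p = 0.0735) or P1 cKO replicate 2 (adjusted p = 0.0523), and the P8 call without P8 WT replicate 2 (adjusted p = 0.0615) or P8 cKO replicate 1 (adjusted p = 0.0603).

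**Figure D4:**
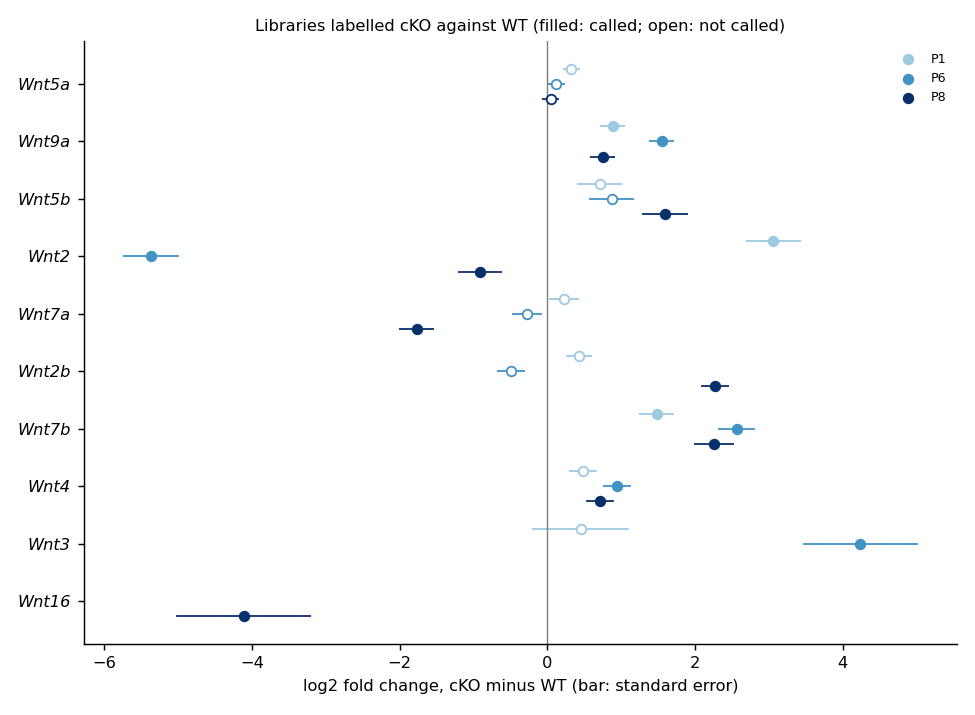
Log2 fold change of each ligand in libraries labelled cKO against WT (horizontal axis; bar, standard error) at P1, P6 and P8 (light to dark blue). Filled points were called and open points were not, and differences against a group with no count are not drawn. *Wnt7b* and *Wnt9a* are filled and right of 0 on all 3 days, and *Wnt2* is at 3.06, -5.37 and -0.91.

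*Wnt2*, a β-catenin ligand known from lung and vessel development, followed courses in the labels that ran opposite to each other at both steps. In WT it was at 0.134 and 0.332 CPM at P1 (8 and 27 counts), 16.3 and 15.0 at P6, then 5.52 and 7.49 at P8. In cKO it was at 1.73 and 2.34 CPM at P1, 0.289 and 0.467 at P6, then 3.63 and 3.31 at P8. No libraries of the labels overlapped on any day. From P1 to P6 *Wnt2* rose 64.3-fold in WT (log2 6.01, SE 0.39, adjusted p = 2.29e-06) and fell 5.36-fold in cKO (log2 -2.42, SE 0.36, adjusted p = 0.000613). From P6 to P8 it fell 2.40-fold in WT (log2 -1.26, SE 0.30, adjusted p = 0.00961) and rose 9.14-fold in cKO (log2 3.19, SE 0.36, adjusted p = 8.27e-05). It was 8.36-fold higher in cKO at P1 (log2 3.06, SE 0.37, adjusted p = 0.000939), 41.2-fold lower at P6 (log2 -5.37, SE 0.37, adjusted p = 8.61e-06) and 1.88-fold lower at P8 (log2 -0.91, SE 0.30, adjusted p = 0.0431). The P8 difference was lost without any of the 4 P8 libraries (adjusted p = 0.0508 to 0.232) or either P6 WT library (0.0699 and 0.0690), and the WT fall after P6 without P8 WT replicate 1 (adjusted p = 0.0728). Without P1 WT replicate 2 the changes against P1 WT were larger, at log2 3.90 between the labels at P1, 6.85 from P1 to P6 in WT, and 5.58 rather than 4.74 from P1 to P8 in WT. In cKO, P8 minus P1 was 0.77 (SE 0.31, adjusted p = 0.0840), a call without either P1 WT library (adjusted p = 0.0413 for each) and with DESeq2 (adjusted p = 0.00986).

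The study stripped the meninges from the brains before culture. As a sum, markers of meningeal fibroblasts differed between the labels in the same direction as *Wnt2* on each day. Over time the sum did not always move as *Wnt2* did. Of 13 such markers 12 were in the table, and their sum was 611 and 627 CPM in P1 WT, 2691 to 2739 in P1 cKO, 7247 to 7318 in P6 WT, 2946 to 3118 in P6 cKO, 27018 to 27132 in P8 WT and 8445 to 8697 in P8 cKO. None was at 0 in any group except *Lum*, which was at 0 in P6 cKO. From P6 to P8 in WT the sum rose while *Wnt2* fell, and 9 of the 12 were called higher (8.66% of all genes) and 0 lower. From P1 to P6 in cKO the sum was slightly higher while *Wnt2* fell. At that step 5 of the 12 were called lower (10.4% of all genes) and 3 higher (11.0%). From P6 to P8 in cKO, where *Wnt2* rose, 8 were called higher (11.9%) and 2 lower (12.2%). Of the 12, 9 were higher in cKO at P1 (4.01% of all genes), 8 lower (6.38%) and 1 higher (7.16%) at P6 and 10 lower at P8 (8.37%). From P1 to P8 in WT all 12 rose (14.4% of all genes). The collagen gene *Col3a1*, for example, averaged 32.3 CPM in P1 WT, 369 in P1 cKO, 1209 in P6 WT, 24.4 in P6 cKO, 4941 in P8 WT and 1144 in P8 cKO. *Col1a1* and *Col1a2*, more abundant collagen genes of the list, did not fall from P1 to P6 in cKO as *Col3a1* did. They averaged 1076 and 846 CPM in P1 cKO, then 1544 and 904 in P6 cKO. The part of these markers in the *Wnt2* values was not tested.

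**Figure D5:**
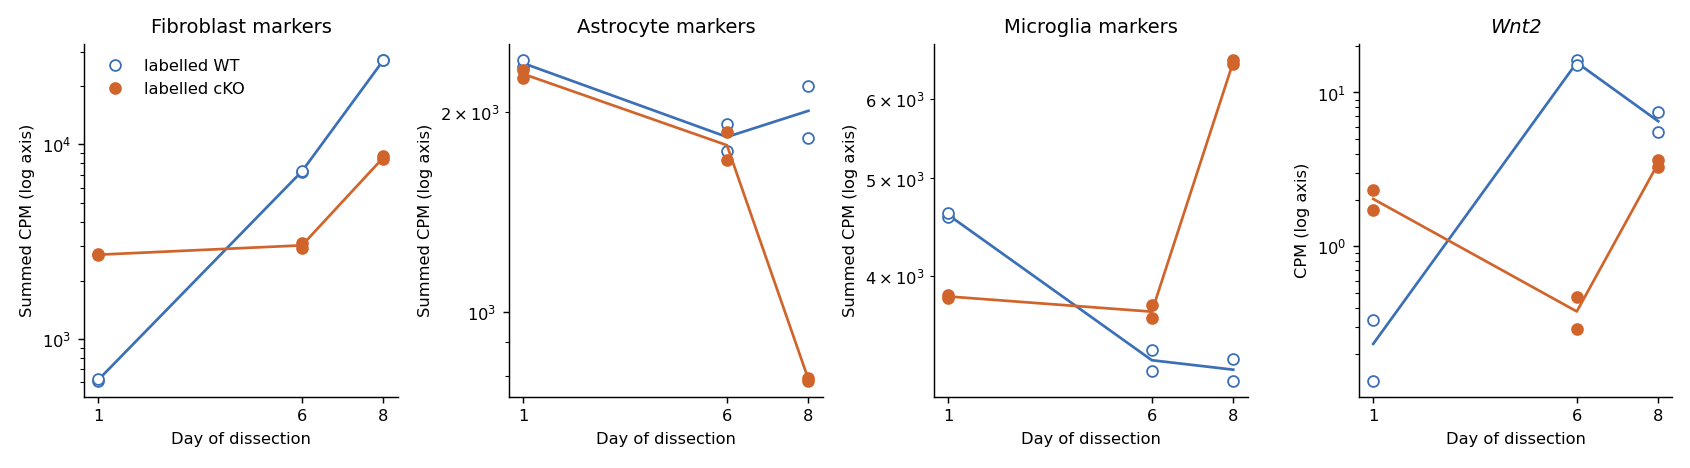
Summed CPM of fibroblast (12 genes), astrocyte (11) and microglia (11) markers and CPM of *Wnt2* (log axes) against the day of dissection, for libraries labelled WT (open) and cKO (filled). Fibroblast markers and *Wnt2* are both higher in cKO at P1 and higher in WT at P6 and P8, and astrocyte markers are lowest in P8 cKO, at 786 and 795 CPM.

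*Wnt2b*, its paralog, did not share this course. In WT it was at 4.46 and 6.22 CPM at P1, 5.27 and 5.90 at P6, then 2.14 and 2.42 at P8, and in cKO at 7.16 and 7.27, 3.52 and 4.43, and 10.9 and 11.1. The highest libraries were thus those of P8 cKO and the lowest those of P8 WT. After P6 it fell 2.45-fold in WT (log2 -1.29, SE 0.19, adjusted p = 0.000658) and rose 2.78-fold in cKO (log2 1.47, SE 0.19, adjusted p = 0.000178). At P8 it was 4.83-fold higher in cKO (log2 2.27, SE 0.19, adjusted p = 1.69e-05), and it was not called at P1 (log2 0.43, SE 0.18, adjusted p = 0.209) or P6 (log2 -0.49, SE 0.18, adjusted p = 0.0840). From P1 to P8 in cKO the rise was 1.53-fold (log2 0.61, SE 0.18, adjusted p = 0.0260), lost without any of the 4 libraries compared (adjusted p = 0.0888 to 0.101). Per length, *Wnt2b* exceeded *Wnt2* 17.8-fold and 10.1-fold in P1 WT, while *Wnt2* exceeded *Wnt2b* 5.75-fold and 4.75-fold in P6 WT and 4.81-fold and 5.76-fold in P8 WT. In cKO *Wnt2b* was the higher of the pair in all 6 libraries, by 1.62-fold to 6.53-fold.

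*Wnt3*, a β-catenin ligand, was a low-count gene that fell away in WT. It had 49 and 108 counts in P1 WT (0.821 and 1.33 CPM), 10 and 10 in P6 WT (0.158 and 0.146 CPM) and 0 in both P8 WT libraries. In cKO it was at 2.07 and 0.878 CPM at P1, 3.82 and 1.99 at P6, then 0.109 and 0.428 at P8. Against a floor of 3 counts over the P8 WT group, *Wnt3* was at least 48.9-fold lower there than in P1 WT and at least 6.66-fold lower than in P6 WT, and at least 12.3-fold higher in P8 cKO than in P8 WT. At P6 it was 18.9-fold higher in cKO (log2 4.24, SE 0.77, adjusted p = 0.00456), and at P1 the log2 difference was 0.45 (SE 0.66, adjusted p = 0.779). In cKO it fell 10.6-fold from P6 to P8 (log2 -3.41, SE 0.73, adjusted p = 0.00599), with log2 -4.71 without P8 cKO replicate 2 and -2.76 without P8 cKO replicate 1. The adjusted p of the P8 difference was 0.00814, and of the falls from P1 and from P6 to P8 in WT 0.000826 and 0.0209. The last of these was lost without any of the 4 libraries compared (adjusted p = 0.0548 to 0.0874). The fall from P1 to P6 in WT (7.03-fold, log2 -2.81, SE 0.75, adjusted p = 0.0181) was lost without P1 WT replicate 2 or either P6 WT library (adjusted p = 0.0775 to 0.0899), and that from P1 to P8 in cKO (log2 -2.44, SE 0.71, adjusted p = 0.0287) without P1 cKO replicate 1 (log2 -1.69, adjusted p = 0.160) or P8 cKO replicate 1 (log2 -1.78, adjusted p = 0.127), and was -3.74 without P8 cKO replicate 2.

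*Wnt4*, known from kidney and female reproductive tract development, peaked at P6 in both labels. It was at 1.66 and 1.81 CPM in P1 WT, 3.16 and 2.51 in P6 WT and 1.53 and 1.302 in P8 WT. In cKO it was at 2.43 and 2.42, 5.21 and 5.71, and 2.24 and 2.41 CPM. The cKO libraries were above the WT libraries on each day, and P6 above P1 and P8 in each label. From P1 to P6 it rose 1.63-fold in WT (log2 0.71, SE 0.19, adjusted p = 0.0165) and 2.25-fold in cKO (log2 1.17, SE 0.19, adjusted p = 0.00116), and from P6 to P8 it fell 2.001-fold (log2 -1.001, SE 0.19, adjusted p = 0.00355) and 2.35-fold (log2 -1.23, SE 0.19, adjusted p = 0.000713). It was 1.93-fold higher in cKO at P6 (log2 0.95, SE 0.19, adjusted p = 0.00556) and 1.64-fold higher at P8 (log2 0.72, SE 0.19, adjusted p = 0.0187), and not called at P1 (log2 0.48, SE 0.19, adjusted p = 0.184). The rise to P6 in WT was lost without P1 WT replicate 1 (adjusted p = 0.0846), P6 WT replicate 1 (0.108) or with DESeq2 on the 4 libraries alone (0.0866). The P8 difference was lost without P8 cKO replicate 1 (0.0530), P8 cKO replicate 2 (0.0926) or P8 WT replicate 2 (0.114) and with DESeq2 on the 4 libraries alone (adjusted p = 0.0795).

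*Wnt16*, a ligand known from bone, was the rarest of the 10 and appeared mainly in P8 WT. It had 0 and 8 counts in P1 WT, 19 and 25 in P6 WT (0.300 and 0.365 CPM) and 213 and 285 in P8 WT (3.58 and 3.95 CPM). The cKO libraries had no count at P1 or P6 and 25 and 8 counts at P8 (0.341 and 0.0951 CPM). It rose 11.3-fold from P6 to P8 in WT (log2 3.49, SE 0.88, adjusted p = 0.0202) and was 17.3-fold lower in cKO at P8 (log2 -4.11, SE 0.91, adjusted p = 0.0116). From P1 to P8 in WT the fitted rise of 67.7-fold (adjusted p = 0.00253) rests on the 8 counts of P1 WT replicate 2, and was log2 6.08 with both P1 libraries and 5.23 without replicate 1; without replicate 2 no P1 WT count is left, and the fitted value is no bound. Against a floor of 3 counts over a group, *Wnt16* was at least 14.5-fold lower in cKO than in WT at P6 (adjusted p = 0.0211), and in cKO at least 9.08-fold higher at P8 than at P6 (adjusted p = 0.0238) and at least 8.09-fold higher than at P1 (adjusted p = 0.0299). The WT rise after P6 was lost without any of the 4 libraries compared (adjusted p = 0.0704 to 0.0990). The P8 difference between labels was lost without P8 WT replicate 2 (adjusted p = 0.0553) or P8 cKO replicate 2 (log2 -3.46, adjusted p = 0.0673), and was -5.28 without P8 cKO replicate 1. The P6 difference was lost without P6 WT replicate 2 or either P6 cKO library (adjusted p = 0.0612 to 0.0744). The cKO rise from P6 was lost without either P6 library or P8 cKO replicate 1 (0.0775 to 0.0900), and that from P1 without either P1 cKO library, either P8 WT library or P8 cKO replicate 1 (0.0522 to 0.109). The fibroblast marker sum given beside *Wnt2* was also highest in P8 WT, and the part of these markers in the *Wnt16* values was not tested.

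Whether a ligand's course differed between the labels was tested as the difference of the changes, called at an adjusted p below 0.05. From P1 to P6, 3 of the 10 differed, where 15.3% of all genes did: the cKO change was the higher for 1 (7.12% of all genes) and the lower for 2 (8.19%). From P6 to P8, 4 differed (21.5% of all genes), 2 higher (12.6%) and 2 lower (8.83%), and from P1 to P8 also 4 (25.7% of all genes), 2 higher (14.0%) and 2 lower (11.7%). *Wnt2* and *Wnt2b* differed in each of the 3, *Wnt7a* from P6 to P8 and from P1 to P8, *Wnt3* from P1 to P6 and from P1 to P8, and *Wnt9a* from P6 to P8. *Wnt4*, *Wnt5a*, *Wnt5b*, *Wnt7b* and *Wnt16* were called in none: from P1 to P8 the difference was 0.23 (SE 0.27, adjusted p = 0.606) for *Wnt4*, -0.28 (SE 0.16, adjusted p = 0.257) for *Wnt5a* and 0.89 (SE 0.43, adjusted p = 0.180) for *Wnt5b* on the log2 scale. That of *Wnt5b* was called without P1 WT replicate 1 (log2 1.33, adjusted p = 0.0102).

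The receptors, secretion factors and modulators that the ligands act with moved too. Of 18 receptor genes tested, 11 rose and 2 fell from P1 to P8 in WT (14.4% and 15.0% of all genes), against 4 and 3 in cKO (10.3% and 9.97%). Between labels, 2 were higher in cKO at P1 (4.01% of all genes), 2 higher (7.16%) and 5 lower (6.38%) at P6, and 10 lower at P8 (8.37%). The other pathway lists are to be read against the same shares, with 11.2% of all genes higher in cKO at P8. The co-receptor *Lrp6* averaged 416 CPM in P8 WT and 209 in P8 cKO (log2 -0.99, adjusted p = 8.24e-06). The Frizzled receptor *Fzd7* averaged 270 against 71.7 CPM (log2 -1.91, adjusted p = 1.33e-08). *Adgra2*, the co-receptor for *Wnt7a* and *Wnt7b*, averaged 18.3 CPM in WT and 60.1 in cKO at P1, 243 and 41.5 at P6, then 265 and 188 at P8; cKO minus WT was 1.71 on the log2 scale at P1 (adjusted p = 4.78e-05), -2.55 at P6 (adjusted p = 1.28e-06) and -0.49 at P8 (adjusted p = 0.0136), short of the 1.5-fold.

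Among 9 genes for the release and anchoring of Wnt ligands, 4 rose (14.4% of all genes) and 2 fell (15.0%) from P1 to P8 in WT. In cKO, 2 rose (10.3%) and 1 fell (9.97%). Between labels, 1 was higher in cKO at P1 (4.01%), 1 higher (7.16%) and 1 lower (6.38%) at P6. At P8, 1 was higher (11.2%) and 2 lower (8.37%). *Gpc4*, a cell-surface proteoglycan, was higher in cKO at P8, at 319 against 205 CPM (log2 0.63, adjusted p = 2.14e-06), and *Gpc6* was lower, at 36.1 against 249 CPM (log2 -2.79, adjusted p = 0.00109). *Trabd2b*, which codes for a protease that inactivates Wnt ligands, was higher in cKO at P6, at 71.0 against 34.6 CPM (log2 1.04, adjusted p = 0.000240). Of 15 antagonist genes 9 were tested: 4 were higher in cKO at P1 (4.01% of all genes), 2 higher (7.16%) and 2 lower (6.38%) at P6. At P8, 2 were higher (11.2%) and 5 lower (8.37%). The Dickkopf family gene *Dkk3* was higher in cKO at P8 (218 against 114 CPM, log2 0.93, adjusted p = 9.57e-07), and the secreted Frizzled-related gene *Sfrp4* lower (3.27 against 57.7 CPM, log2 -4.14, adjusted p = 4.60e-08). *Dkk2* followed the direction of *Wnt2*, with log2 differences of 2.87, -2.04 and -1.11 at P1, P6 and P8 (adjusted p = 4.47e-06, 3.39e-06 and 8.59e-05).

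The R-spondins, which amplify Wnt signals, and their receptors were listed together with *Ndp*, and 6 of these 8 genes were tested. In cKO, 2 were higher at P6 (*Lgr6* and *Ndp*, beside 7.16% of all genes) and 2 lower (*Rspo2* and *Rspo3*, beside 6.38%). The same 2 R-spondins were lower at P8 (8.37% of all genes). *Rspo3* averaged 81.6 CPM in P8 WT and 18.6 in P8 cKO (log2 -2.14, adjusted p = 1.32e-06), and *Rspo2* 47.5 and 5.30 (log2 -3.16, adjusted p = 0.000125). *Lgr6*, an R-spondin receptor, was higher in cKO at P6 (22.6 against 3.67 CPM, log2 2.62, adjusted p = 2.17e-05). Of 16 target genes of β-catenin signalling 11 were tested: 3 were higher in cKO at P1 (4.01% of all genes), 4 higher (7.16%) and 4 lower (6.38%) at P6, and 4 higher (11.2%) and 4 lower (8.37%) at P8, with median log2 differences of 0.56, 0.14 and 0.13. *Axin2*, a feedback target, was higher in cKO at P1 (47.6 against 31.3 CPM, log2 0.61, adjusted p = 0.0108), and gave 0.20 at P6 (adjusted p = 0.265) and 0.13 at P8 (adjusted p = 0.461). *Tcf7*, a transcription factor of the pathway, was called higher at P6 and P8 (log2 1.25 and 0.73, adjusted p = 3.15e-05 and 0.000673). At P1 its log2 difference was 0.56 (adjusted p = 0.0103), short of the 1.5-fold. The cyclin gene *Ccnd1* was also called higher at P6 and P8 (log2 1.06 and 1.54, adjusted p = 1.84e-08 and 2.04e-09), with 3936 against 1890 CPM at P6 and 1836 against 633 at P8. The targets called lower were *Nkd2*, *Sp5*, *Tnfrsf19* and *Notum* at P6, and *Nkd1*, *Nkd2*, *Tnfrsf19* and *Notum* at P8. *Notum* is also on the list for release and anchoring. *Apcdd1*, a target called higher in cKO on all 3 days, is also on the antagonist list. The calls of these genes are thus counted in both lists. The fibroblast marker sum differed between the labels on all 3 days, and the astrocyte and microglia sums stood apart mainly in P8 cKO. Mural (vessel-wall) markers summed higher in cKO on each day, at P8 3033 and 3073 CPM against 2445 and 2480. Of 7 tested, 1 was called higher (11.2%) and 2 lower (8.37%) at P8. Neuron markers (4 of 11 tested) summed to 400 and 403 CPM in P6 cKO against 183 and 218 in P6 WT. At P8 they gave 264 and 276 CPM in cKO against 120 and 140. The endothelial, oligodendrocyte, ependymal and proliferation sums also lay apart between labels at P8. The part of these markers in the pathway lists was not tested.

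The genes whose log2 CPM tracked a leading ligand most closely were picked among 15145 tested genes with a mean of at least 1 CPM. For *Wnt5a* these were *Kank2* (Pearson r = 0.971), *Lrrc3* (0.970) and *Rnf11* (0.958), for *Wnt9a* *Fhad1* (0.985), *Galnt15* (0.976) and *Rgs20* (0.975), and for *Wnt5b* *5730559C18Rik* (0.947), *Tnfaip3* (0.935) and *Ptpn23* (0.931). Each r is over the same 12 libraries in 6 groups and is given as a description of the best among many. *Fhad1* averaged 9.57, 4.66 and 2.55 CPM at P1, P6 and P8 in WT and 15.0, 14.9 and 4.09 in cKO, the order of levels that *Wnt9a* had.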

How the data were processed

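mRNA was sequenced in 12 libraries; the authors aligned the reads with HISAT2 to mm10 (GRCm38) and deposited raw counts per gene, with whole-number counts for 18903 genes. The counting program, its annotation and strand setting were not given in the sources used here. The study's methods name ballgown and DESeq2 for differential expression.

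All 12 libraries were fitted together with edgeR 4.0.16 (R 4.3.3): filterByExpr (minimum count 10, minimum total 15; 17938 genes kept), TMM scaling, 6 group means and the quasi-likelihood test, two-sided, with Benjamini-Hochberg adjustment over all tested genes. A call needed an adjusted p below 0.05 and a 1.5-fold change, and for differences of changes the adjusted p alone. DESeq2 1.42.0 was an alternative. Library totals of 54413504 to 89183250 set the counting precision, and zero groups were bounded with 3 counts. RPKM used merged exon lengths of GENCODE (18861 of 18903 identifiers matched). The code was tested on simulated data. Replicate libraries differed by more than sampling noise (chi-square 30.5 to 47.1 for each degree of freedom).

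The 10 ligands, and the pathway and marker lists, were chosen with earlier results of these data known. Named list genes were the up to 3 most abundant of those called between labels, and the genes most like a ligand were taken for the 3 ligands with the highest mean RPKM. Besides the wild-type and cKO comparisons on each day, days were compared within a label. The alternatives were another scaling, no filter, a replicate block, DESeq2, other thresholds and leaving out each library.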

Additional observations from a re-analysis of the deposited data

Results flagged for a closer look

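For 5 ligands the change between days differed between the labels, by the test of the difference itself, and these are the results to look at again. Values are log2, the cKO change minus the WT change. The directions rest on the labels. The whole-gene *Zmynd8* level goes against these, though it does not check the deleted exons, and the 3 contrasts share groups.

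*Wnt2* gave -8.43 from P1 to P6 (SE 0.52, adjusted p = 6.27e-06), 4.46 from P6 to P8 (SE 0.46, adjusted p = 0.000147) and -3.97 from P1 to P8 (SE 0.48, adjusted p = 0.000269). All 3 were called with each library left out, and the values against P1 were -9.28 and -4.81 without P1 WT replicate 2. *Wnt2b* gave -0.92 (SE 0.26, adjusted p = 0.0423), 2.76 (SE 0.26, adjusted p = 8.61e-05) and 1.84 (SE 0.26, adjusted p = 0.000699) for the same steps. The first of these was called in only 2 of 12 fits with a library left out (adjusted p = 0.0559 to 0.118 in the other 10), namely those without P1 WT replicate 2 and P6 cKO replicate 2.

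*Wnt7a* gave -1.498 from P6 to P8 (SE 0.31, adjusted p = 0.00864) and -1.99 from P1 to P8 (SE 0.31, adjusted p = 0.00128), called with each library left out. *Wnt9a* gave -0.80 from P6 to P8 (SE 0.24, adjusted p = 0.0413), called in 2 of 12 fits with a library left out, those without P6 WT replicate 2 and P8 cKO replicate 1 (adjusted p = 0.0506 to 0.136 in the others).

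*Wnt3* gave 3.79 from P1 to P6 (SE 1.00, adjusted p = 0.0377). This was lost without either P1 WT library, P1 cKO replicate 2, either P6 WT library or P6 cKO replicate 1 (adjusted p = 0.0581 to 0.112), and was 4.53 without P1 cKO replicate 1. From P1 to P8 the fitted value was 6.75 (SE 1.84, adjusted p = 0.0292). It rests on P8 WT libraries with no *Wnt3* count, so that it depends on the fit and is not a bound. It was lost without P1 WT replicate 2, P1 cKO replicate 2, either P8 WT library or P8 cKO replicate 2 (5.41 without the last; adjusted p = 0.0567 to 0.0924), and was 7.51 without P1 cKO replicate 1 and 7.39 without P8 cKO replicate 1.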

How the results depend on the processing

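Of 72 calls named for the ligands, 50 held with each library left out and 46 under every alternative run; with TMM replaced by DESeq2 size factors, or with no filter, no ligand call changed. With a 2-fold threshold the calls fell from 7 to 4 between P1 and P6 in WT, from 5 to 3 in cKO, from 3 to 2 between labels at P1 and from 9 to 6 at P8. DESeq2 on all libraries, like the unadjusted p, called 5 rather than 3 differences of change from P1 to P6. Leaving out 1 library gave 1 to 3 of these, 4 to 7 calls between P1 and P6 in WT, 3 to 7 between P1 and P8 in cKO, 5 to 9 between P6 and P8 in WT, 2 to 4 between labels at P1 and 5 to 9 at P8. Uncalled log2 values that changed sign with a library left out were those between labels of *Wnt3* at P1 (-0.30 to 0.94) and of *Wnt5a* at P6 (-0.0029 to 0.26) and P8 (-0.032 to 0.12), and the *Wnt9a* difference of change from P1 to P8 (-0.31 to 0.030).

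Ranked by CPM with no length, 3 ligands kept their position in P1 cKO and 6 in P1 WT and P6 cKO; with the longest transcript as length 6 did in P6 WT and P6 cKO. With a library left out, 4 to 10 did in each P1 group and 6 to 10 in P6 cKO and P8 cKO. Replicate numbers did not pair the samples: deviations of same-numbered libraries correlated at -0.063 to 0.044 over 15 pairs of groups. The replicate block gave 2 rather than 3 differences of change from P1 to P6 (*Wnt3*, adjusted p = 0.0619), 3 rather than 4 from P6 to P8 (*Wnt9a*, 0.0609) and 5 rather than 6 calls from P1 to P8 in cKO (*Wnt3*, 0.0511). *Wnt3* and *Wnt16* are limited by their few counts in their lowest groups.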

Other observations

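Among the Wnt genes outside the 10, *Wnt6* ranged from 0 to 3.31 CPM and was highest in P8 WT, at 3.31 and 2.20 CPM. *Wnt10b* ranged from 0.201 to 2.12 CPM and was highest in P6 cKO, at 2.12 and 1.03. *Wnt11* ranged from 0 to 1.48 CPM, *Wnt10a* from 0 to 0.892 and *Wnt1* from 0 to 0.0761.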
